A study of Mus musculus with 14 samples.

Results

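Secreted and membrane-bound inhibitors of Wnt signalling were followed in the epithelium of embryonic mouse skin. The 10 genes were taken by name (Dkk1, Dkk2, Dkk3, Dkk4, Wif1, Sfrp1, Sfrp2, Frzb, Notum and Apcdd1), and all 10 were found among the 26252 genes of the count table. Wild-type C57BL/6JOlaHsd embryos at E14.5 gave dorsal skin epithelium, which was sorted by an antibody to the adhesion molecule MAdCAM-1. The positive cells form the placode-enriched fraction and the negative cells the interfollicular epithelium (IFE). Each fraction had 7 libraries, paired by the code in their titles. A library holds cells of 3 to 4 embryos pooled within a litter, so single embryos were not measured. No treatment or engineered allele is given for either fraction.

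Wnt proteins are secreted lipid-modified ligands that bind Frizzled receptors and the co-receptors Lrp5 and Lrp6 and thereby stabilise beta-catenin. Hair placodes, the epithelial thickenings from which follicles grow, need this signal to form, and their spacing is thought to depend on inhibitors that limit it. The inhibitors act at different steps. Dkk1, Dkk2 and Dkk4 bind the Lrp co-receptors, Wif1 and the Frizzled-related proteins Sfrp1, Sfrp2 and Frzb bind Wnt proteins, Notum removes the lipid from Wnt, and Apcdd1 is a membrane glycoprotein that binds Wnt and Lrp.

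Of the 10 genes, 6 had enough reads to be tested and 5 of these were higher in the placode-enriched fraction, namely Wif1, Dkk4, Dkk3, Sfrp1 and Apcdd1. Sfrp2 did not pass the test, and Dkk1, Dkk2, Frzb and Notum had too few reads. Among all 15382 genes tested, 31.1% were called, 15.5% as higher and 15.6% as lower in the placode-enriched fraction. A call is a Benjamini-Hochberg adjusted p under 0.05 in edgeR's quasi-likelihood test, fitted with a term for each pair. None of the 6 tested inhibitors was lower, with 0 also at an unadjusted p under 0.05 and 0 by DESeq2 and by limma-voom. The median log2 fold change of the 6 was 1.92, against -0.02 over all genes tested. Levels are given as CPM, the counts of a gene per mega-count of its library, on library sizes scaled by the TMM method. CPM compare 1 gene between libraries and not different genes with each other.

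**Figure D1:**
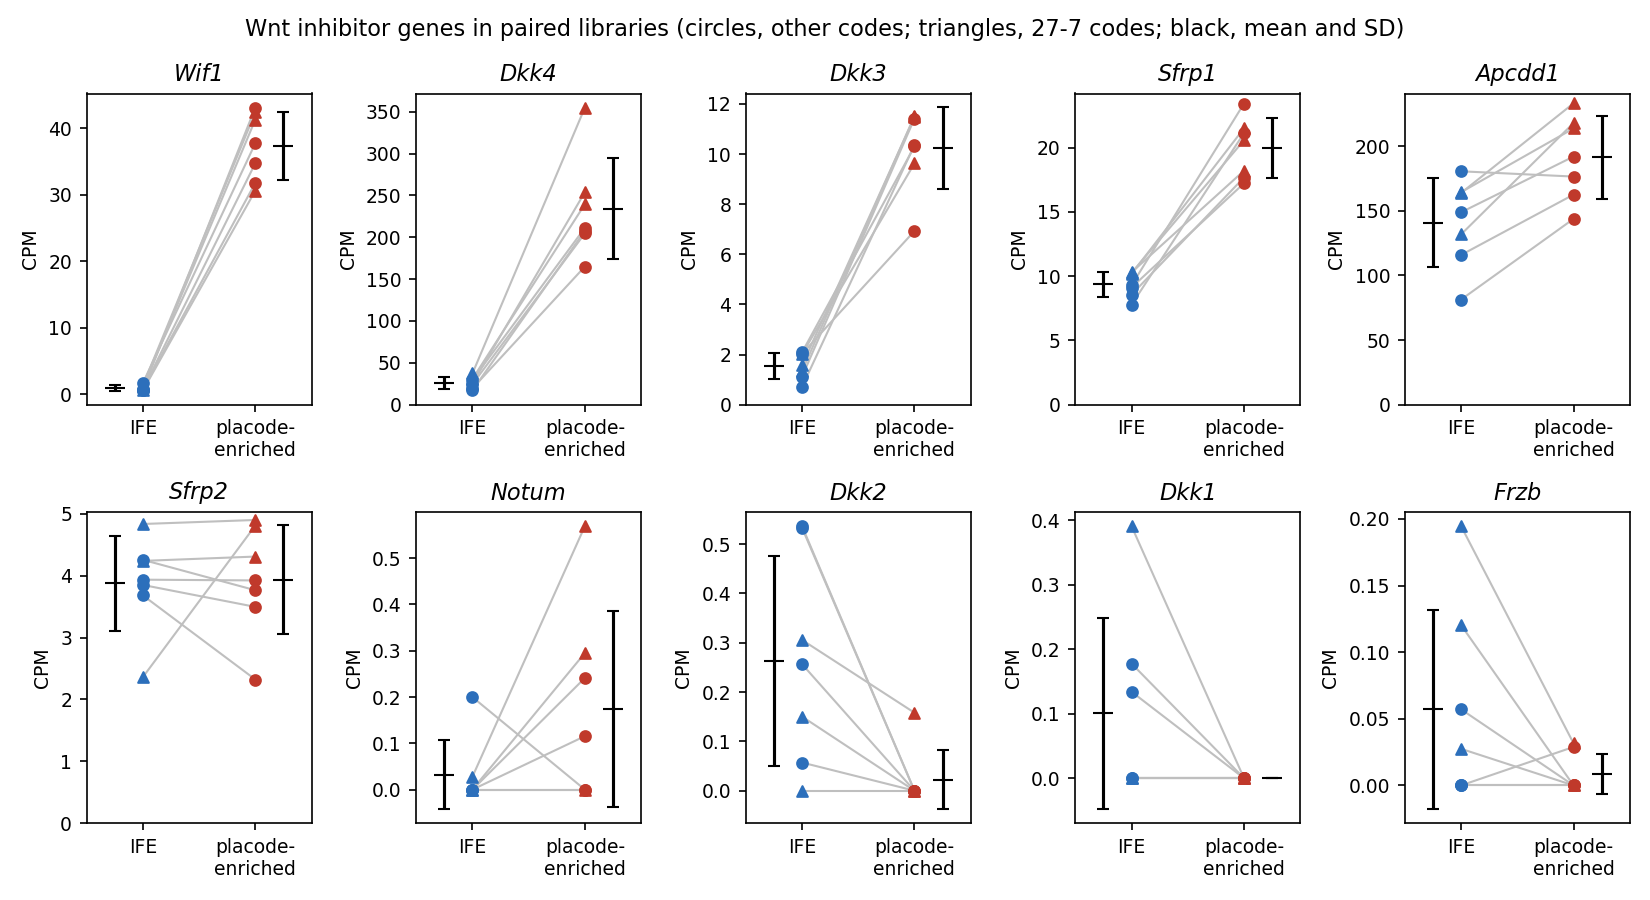
CPM of each of the 10 genes (vertical axis, separate scale per gene) in the 7 IFE (blue) and 7 placode-enriched (red) libraries, with lines joining the libraries of a pair, triangles for pairs with 27-7 codes, and the mean and SD in black. The fractions do not overlap for Wif1, Dkk4, Dkk3 and Sfrp1, and Dkk1 has no read in any placode-enriched library.

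The start of a gene can be set beside these values where its promoter window was among those searched. The searched RefSeq windows, 250 bases before to 50 after the start (GRCm38.p6), covered 5 of the 10 genes: Wif1, Dkk1, Dkk2, Sfrp2 and Frzb. The starts of the other 5 genes were not searched, so nothing is said of the letters there. They are shown for Wif1, the inhibitor with the largest fold change among the 6 tested, and for Dkk1, which had 0 reads in the placode-enriched libraries. Capitals mark the word CTTTGAA or the word CTTTGAT or the word CTTTGTA or the word CTTTGTT on either strand, forms of the sequence that Tcf/Lef factors, the DNA-binding partners of beta-catenin, recognise. The windows lie on the plus strand at chr10:121033754-121034053 for Wif1 and on the minus strand at chr19:30549447-30549746 for Dkk1.
Wif1: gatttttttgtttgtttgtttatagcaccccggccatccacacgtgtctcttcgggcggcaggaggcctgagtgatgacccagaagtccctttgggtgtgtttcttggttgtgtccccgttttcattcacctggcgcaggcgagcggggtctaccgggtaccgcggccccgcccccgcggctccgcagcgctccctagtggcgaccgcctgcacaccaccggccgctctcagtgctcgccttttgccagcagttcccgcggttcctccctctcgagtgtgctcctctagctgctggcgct
Dkk1: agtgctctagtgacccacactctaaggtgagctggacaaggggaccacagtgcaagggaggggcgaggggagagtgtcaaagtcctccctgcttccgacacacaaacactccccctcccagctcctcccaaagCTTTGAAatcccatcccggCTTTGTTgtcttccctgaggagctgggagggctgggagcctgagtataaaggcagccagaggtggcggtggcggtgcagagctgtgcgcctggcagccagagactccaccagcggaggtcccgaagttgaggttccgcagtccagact
The Wif1 window held none of these letters, and neither did those of Dkk2, Sfrp2 and Frzb. The Dkk1 window held CTTTGAA at positions 134 to 140 and CTTTGTT at positions 153 to 159, counted from its 5′ end. Any of the 4 words occurred in 16.9% of the 32851 RefSeq windows searched. A match describes letters and is not a measured binding site.

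Wif1, which binds Wnt proteins outside the cell (ENSMUSG00000020218; GRCm38 chromosome 10, 121033960 to 121100650, plus strand), showed the widest separation of the fractions among the 6 tested genes. The lowest, median and highest placode-enriched libraries stood at 30.6, 37.7 and 43.1 CPM. The IFE libraries stood at 0.528, 0.711 and 1.64 CPM. All placode-enriched libraries were above all IFE libraries. On the log2 scale the fractions differed by 5.36 ± 0.18 (the error being an approximate SE; edgeR adjusted p = 1.65e-10) in 7 of 7 pairs, with pair differences from 4.46 to 5.92. By fold change Wif1 ranked 20 of 15382 genes. The IFE mean was 2.51% of the placode-enriched mean, beside 1.92% for Shh, a ligand made by placodes, and 1.17% for Madcam1, the gene of the sorted antigen.

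Dkk4, a secreted antagonist of the Lrp co-receptors that is known as an early placode gene (ENSMUSG00000031535; chromosome 8, 22624043 to 22627547, plus strand), was high in 1 fraction and present in the other. The placode-enriched libraries ran from 165 to 355 CPM with a median of 211 CPM. The IFE libraries ran from 17.03 to 37.3 CPM with a median of 25.2 CPM, so the fractions did not overlap. The log2 fold change was 3.16 ± 0.09 (edgeR adjusted p = 8.45e-11; 7 of 7 pairs). The pair with the highest level in placode-enriched cells, pair 6, was also the highest in IFE cells. Its IFE mean was 11.2% of the placode-enriched mean, a share close to that of Fgf20 (11.5%) and above that of Wif1.

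Dkk3, a divergent member of the Dickkopf family whose action on Wnt signalling is less settled (ENSMUSG00000030772; chromosome 7, 112116017 to 112159057, minus strand), was a low-level gene in both fractions. The lowest, median and highest placode-enriched libraries stood at 6.93, 10.4 and 11.5 CPM, and the IFE libraries at 0.704, 1.57 and 2.08 CPM. The fractions did not overlap, and pair 2 was the lowest of the placode-enriched libraries. The log2 fold change was 2.75 ± 0.24 (edgeR adjusted p = 1.40e-06; 7 of 7 pairs). Pair differences spread from 1.75 to 3.75, more widely than the 2.84 to 3.60 of Dkk4.

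Dkk1 and Dkk2, both ligands of the Lrp co-receptors, were close to the limit of detection. For Dkk1 (ENSMUSG00000024868; chromosome 19, 30545863 to 30549665, minus strand) 0 reads fell in the 7 placode-enriched libraries together, a total that allows up to 0.0129 CPM for a limit of 3 counts. The IFE libraries had 24 reads, with 4 in pair 3, 7 in pair 4, 13 in pair 7 and 0 in the other 4. The pooled IFE level of 0.103 CPM (95% counting interval 0.0659 to 0.153) was 7.97-fold the limit of 3 counts over the placode-enriched group. That ratio leaves out the counting error of the IFE reads, so it is not a lower bound. Dkk2 (ENSMUSG00000028031; chromosome 3, 132085292 to 132180304, plus strand) had 5 reads in the placode-enriched libraries, all in pair 6, and 61 reads spread over 6 of 7 IFE libraries. The ratio of IFE over placode-enriched was 12.2, with an exact 95% counting interval of 4.93 to 38.8. When no gene was removed for low counts, the Dkk2 log2 fold change was -4.49 ± 1.79 (edgeR adjusted p = 0.0336) and that of Dkk1 did not pass (edgeR adjusted p = 0.172). Counting intervals and limits cover counting error only, because amplified reads are not independent molecules.

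Dkk1 and Dkk2 are known to be expressed in the dermis of developing skin, so markers of dermal fibroblasts were read beside them. Of 12 tested dermal markers, 5 were higher in placode-enriched cells, 4 were lower there and 3 did not pass. The summed level of all 16 in the table ranged from 1484 to 2195 CPM in the placode-enriched and from 1335 to 1678 CPM in the IFE fraction. Most of that sum was Postn (1042 against 745 CPM) and Dcn (498 against 258 CPM), so it is no measure of the cell class. Of the collagen genes, Col1a1 (0.524 against 4.199 CPM), Col5a1 (186 against 226 CPM) and Col6a3 (1.44 against 4.98 CPM) were lower in placode-enriched cells. Col1a2 was higher there (28.0 against 11.8 CPM), and Col3a1 did not pass (3.04 against 4.80 CPM). Col6a1, not tested, stood at 0.0379 against 1.08 CPM. Fbn1 (34.3 against 20.2 CPM) and Thy1 (7.69 against 4.48 CPM) were also higher, and Vim (75.6 against 170 CPM) was lower. The mesenchymal transcription factors had too few reads to be tested. Twist1 and Prrx1 had 0 reads in every placode-enriched library, and Twist2 averaged 0.00574 CPM there. In the IFE libraries Twist1 averaged 0.318, Prrx1 0.335 and Twist2 0.171 CPM, and each was at 0 in at least 1 of them. The part of such cells in the Dkk1 and Dkk2 reads was not tested, and in bulk samples fewer cells of a type and less RNA per cell cannot be told apart.

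Among the Frizzled-related proteins, which carry a Frizzled-like cysteine-rich domain that binds Wnt, 1 differed, 1 did not and 1 was hardly detected. Sfrp1 (ENSMUSG00000031548; chromosome 8, 23411502 to 23449632, plus strand) stood at 17.2, 20.6 and 23.4 CPM in the lowest, median and highest placode-enriched libraries. Its IFE values were 7.78, 9.29 and 10.3 CPM. The fractions did not overlap, and the log2 fold change was 1.09 ± 0.11 (edgeR adjusted p = 4.29e-06; 7 of 7 pairs). Sfrp1 was also the steadiest of the 6 tested genes, with a coefficient of variation of 11.6% in placode-enriched and 10.3% in IFE libraries.

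Sfrp2 (ENSMUSG00000027996; chromosome 3, 83766321 to 83774316, plus strand) ran from 2.32 to 4.90 CPM in placode-enriched libraries with a median of 3.92 CPM. In IFE libraries it ran from 2.36 to 4.84 CPM with a median of 3.94 CPM. The ranges overlapped almost entirely. The log2 fold change of 0.01 ± 0.21 did not pass (edgeR adjusted p = 0.975), and 3 of 7 pairs were higher in the placode-enriched library. Sfrp2 exons overlap those of Gm26771 on the opposite strand, and without the strand setting of the counting the reads of both cannot be told apart. Frzb (ENSMUSG00000027004; chromosome 2, 80411970 to 80447625, minus strand) had 2 reads in the placode-enriched and 14 in the IFE libraries. Its ratio of IFE over placode-enriched was 6.98, with a counting interval from 1.60 to 63.2, and 7 of the 14 reads came from 1 library. It did not pass without the filter on low counts (edgeR adjusted p = 0.591).

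Notum, the secreted carboxylesterase that takes the lipid off Wnt proteins (ENSMUSG00000042988; chromosome 11, 120653788 to 120661175, minus strand), had 38 reads in 4 placode-enriched libraries and 8 reads in 2 IFE libraries. The ratio of placode-enriched over IFE was 4.77, with a counting interval from 2.19 to 11.8. Of the placode-enriched reads, 18 came from pair 6 and 10 from pair 7. Libraries with no read occurred in both fractions, and the gene did not pass without the filter (log2 fold change 3.23 ± 2.27, edgeR adjusted p = 0.294). Its exons overlap an antisense gene, Notumos. Glypicans, cell-surface proteoglycans on which Notum can act, were also read: 4 of 5 tested were higher in the placode-enriched fraction (median log2 fold change of the 5, 0.76). Gpc6, at 3.84 against 3.22 CPM, did not pass. No glypican was lower, with 0 at an unadjusted p under 0.05 in edgeR and 0 by DESeq2 and limma-voom. Gpc2 rose by 1.69 ± 0.11 and Gpc4 by 1.30 ± 0.11 on the log2 scale.

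Apcdd1, the membrane glycoprotein of the group (ENSMUSG00000071847; chromosome 18, 62922231 to 62961179, plus strand), was broadly expressed. The lowest, median and highest placode-enriched libraries stood at 144, 192 and 233 CPM. The IFE libraries stood at 81.3, 149 and 181 CPM, so the fractions overlapped. The log2 fold change was 0.47 ± 0.09 (edgeR adjusted p = 0.00171), with 6 of 7 pairs higher. In pair 3 the levels were 177 CPM in the placode-enriched and 181 CPM in the IFE library. Non-overlap with the placode-enriched libraries on top was thus seen in 4 of the 6 tested genes, where 7.46% of all genes tested showed it.

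**Figure D2:**
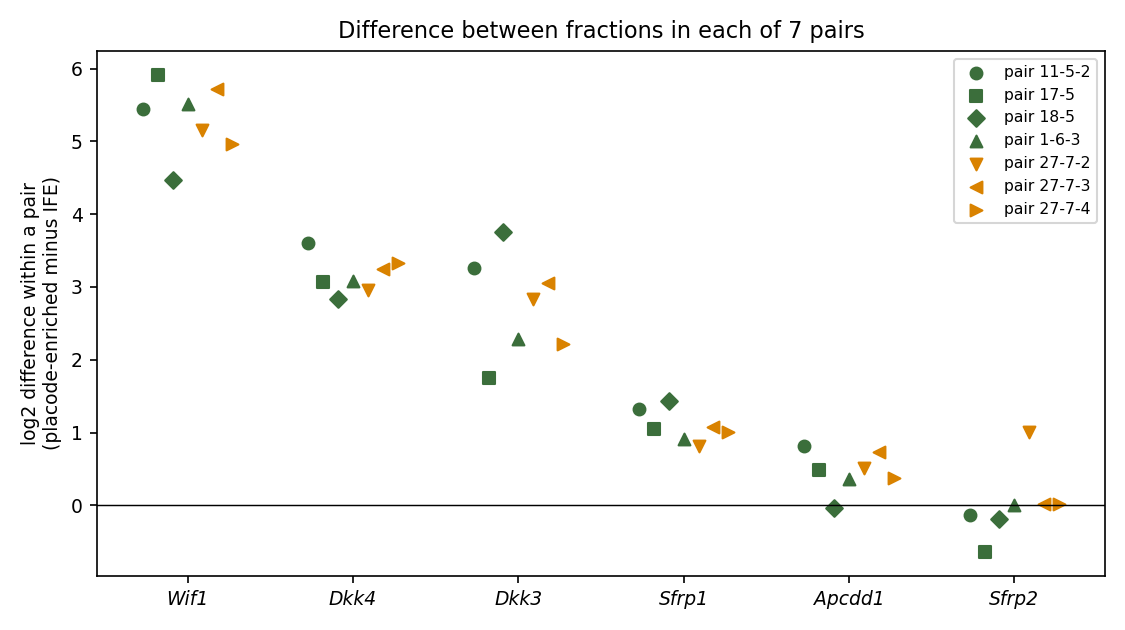
Log2 difference between the placode-enriched and the IFE library (vertical axis, prior count of 2) in each of 7 pairs for the 6 tested genes, with pairs of 27-7 codes in orange. Wif1 lies between 4.46 and 5.92 in all pairs, and Sfrp2 lies on both sides of 0.

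The order of the fold changes was Wif1, Dkk4, Dkk3, Sfrp1, Apcdd1 and Sfrp2. Neighbours in that order were compared within pairs by exact two-sided sign-flip tests, adjusted over 5 comparisons. With 7 pairs the smallest p is 0.0156. Wif1 exceeded Dkk4 by 2.15 ± 0.46 on the log2 scale (SD, n = 7 pairs; exact p = 0.0156, adjusted 0.026). Dkk3 exceeded Sfrp1 by 1.65 ± 0.57, and Sfrp1 exceeded Apcdd1 by 0.62 ± 0.39, in 7 of 7 pairs each with the same exact p. Dkk4 and Dkk3 differed by 0.42 ± 0.75 in 6 of 7 pairs (exact p = 0.156), within the spread of the pairs. Apcdd1 and Sfrp2 differed by 0.45 ± 0.55 (exact p = 0.0781). The order was read from the same values, so these tests describe its steps.

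The title codes of 3 pairs start with 27-7, and the labels do not say what the codes stand for. The fraction difference of each gene was compared between these 3 and the other 4 pairs by an interaction term over all genes, which called 0 of 15382 genes in edgeR (0%) and 528 at an unadjusted p under 0.05. Wif1 averaged 5.28 in the 27-7 pairs and 5.34 in the others, and Dkk4 averaged 3.18 and 3.15. Dkk3 stood at 2.70 and 2.76, Sfrp1 at 0.97 and 1.18, and Apcdd1 at 0.54 and 0.41. Sfrp2 averaged 0.35 in the 27-7 pairs and -0.24 in the others, and the difference of 0.59 ± 0.40 did not pass (edgeR adjusted p = 0.902). The 0.35 rests on pair 5 at 1.01, since pairs 6 and 7 both stood at 0.02. The others ran from -0.64 to -0.0019. Each of the 5 called genes kept its call in either set of pairs alone.

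Levels of different genes can be compared only per length, so CPM were divided by the kilobases of exon in each gene. On this scale Dkk4 led the group in placode-enriched cells at 178 ± 45.9 CPM per kilobase (SD, n = 7), followed by Wif1 at 15.4 ± 2.11 and Apcdd1 at 14.9 ± 2.51. Wif1 and Apcdd1 did not differ beyond their spread (log2 0.06 ± 0.29, exact p = 0.609 over 7 libraries, 4 of 7 higher). Sfrp1 (4.57 ± 0.53), Dkk3 (3.05 ± 0.48) and Sfrp2 (1.83 ± 0.41) followed in that order, each step in 7 of 7 libraries (exact p = 0.0156, adjusted 0.0195 over 5 comparisons). In IFE cells Dkk4 stood at 19.9 ± 5.26 and Apcdd1 at 10.9 ± 2.65 CPM per kilobase (exact p = 0.0156, adjusted 0.026). Sfrp1 (2.14 ± 0.22) and Sfrp2 (1.80 ± 0.36) came next, a step that missed the threshold after adjustment (adjusted exact p = 0.0586). Dkk3 (0.461 ± 0.158) and Wif1 (0.387 ± 0.171) came last of the tested genes and did not differ beyond their spread (exact p = 0.516). The orders of levels, here and per coding length below, were also read from the same values. Their tests describe the steps for the gene lengths used and do not cover error in those lengths.

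The make-up of the inhibitor transcripts is given here as shares of their summed level. The 10 genes summed to 218 ± 47.5 CPM per kilobase in placode-enriched and 35.8 ± 7.02 in IFE libraries. Dkk4 made up 81.2% of that sum in placode-enriched libraries (76.7 to 87.0%) and 55.2% in IFE libraries (47.1 to 64.5%). Apcdd1 made up 6.96% and 30.5%, and Wif1 7.34% and 1.08%. These values rest on the gene models: the merged exons of Apcdd1 span 12884 bases, of which 1542 are coding. Per coding length, an alternative chosen after seeing the data, Dkk4 still led in placode-enriched cells with 64.1% and Apcdd1 followed with 23.0%. In IFE cells the order turned, with Apcdd1 at 61.3% and Dkk4 at 26.7%. The near-equal placode-enriched levels of Wif1 and Apcdd1 per exon length also parted, to 32.9 ± 4.50 and 124 ± 21.0 CPM per coding kilobase. Apcdd1 was then higher by 1.91 ± 0.29 on the log2 scale in 7 of 7 libraries (exact p = 0.0156, the smallest possible). The step from Sfrp1 to Sfrp2 in IFE cells, which missed the threshold per exon length, passed per coding length (log2 1.19 ± 0.39, 7 of 7 libraries, adjusted exact p = 0.0195).

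**Figure D3:**
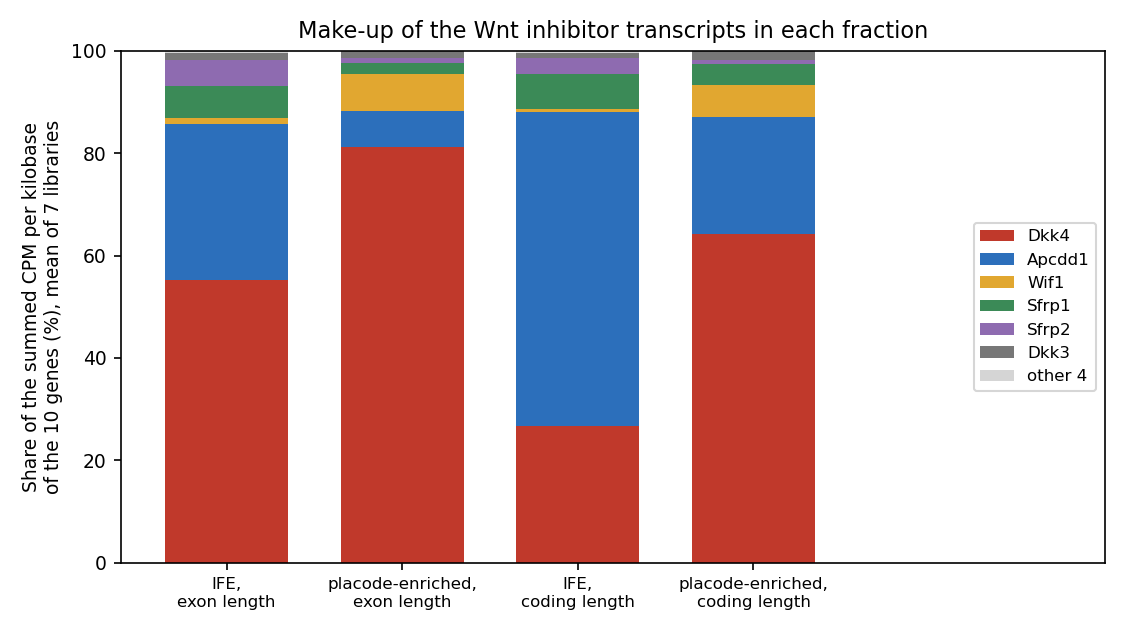
Mean share (vertical axis, percent) of each gene in the summed CPM per kilobase of the 10 inhibitors, over 7 libraries per bar, with exon length at the left and coding length at the right. Dkk4 takes 81.2% and 64.1% in placode-enriched cells under the 2 lengths, and 55.2% and 26.7% in IFE cells.

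Another 17 tested genes were listed for a link to Wnt inhibition. The list is broad, and a place in it, as for Bambi and Cthrc1, does not mean that a gene restrains Wnt signalling. Of the 17, 6 were higher, 5 were lower and 6 did not pass, with a median log2 fold change of 0.22. Those that rose included Kremen2, a receptor for Dickkopf proteins (0.86 ± 0.09), while Kremen1 stood at 90.4 against 98.7 CPM and did not pass. Sostdc1, an inhibitor of BMP and Wnt, rose by 0.97 ± 0.06, Igfbp4 by 1.44 ± 0.10 and the carboxypeptidase gene Cpz by 2.25 ± 0.44. The ubiquitin ligases Znrf3 (0.37 ± 0.07) and Rnf43 (0.29 ± 0.08), which remove Frizzled receptors from the cell surface, rose by less. Those that fell were Dkkl1 (-3.73 ± 0.48), Shisa2 (-2.16 ± 0.40), Nkd2 (-1.65 ± 0.22), Bambi (-0.69 ± 0.23), a pseudoreceptor of TGF-beta signalling, and Cthrc1 (-0.59 ± 0.13). In the 4 pairs without 27-7 codes alone, 3 were higher and 3 lower.

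**Figure D4:**
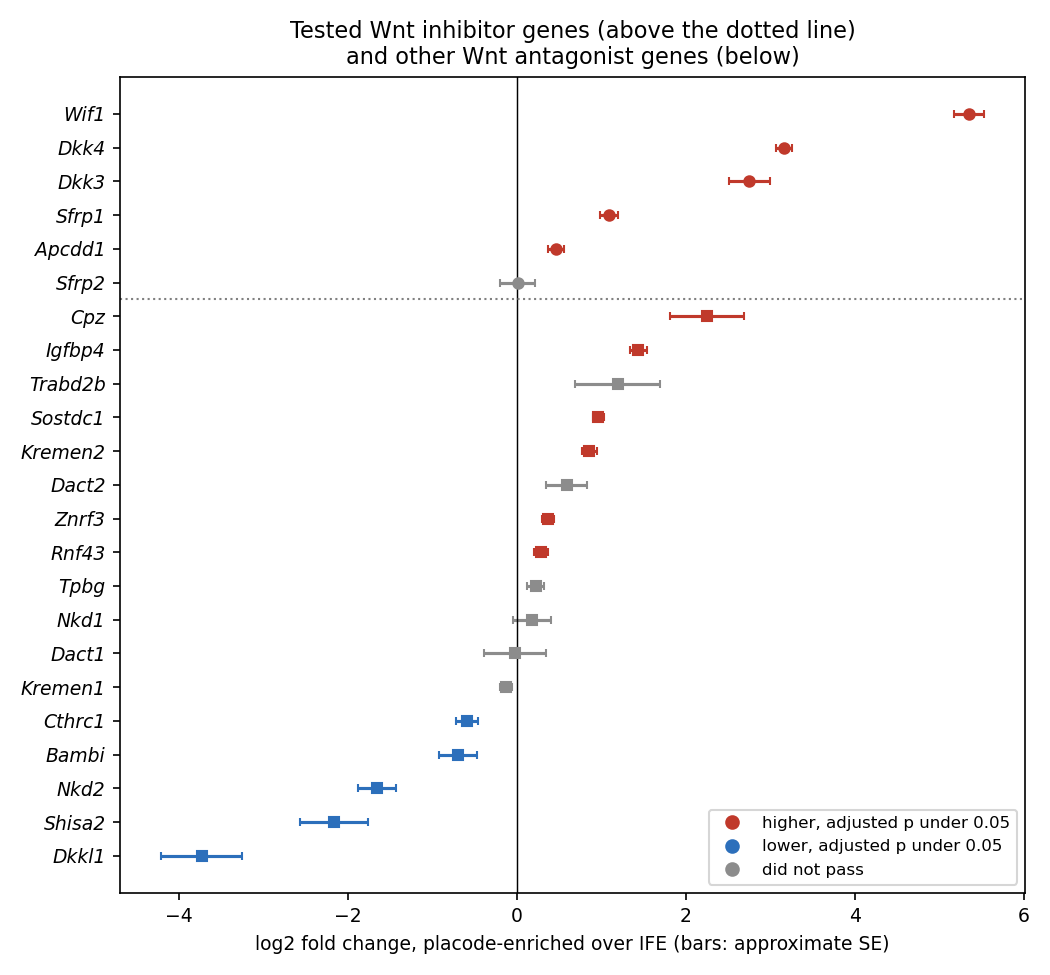
Log2 fold change of placode-enriched over IFE (horizontal axis, bars are approximate SE), coloured by the edgeR call. The 6 tested inhibitors are above the dotted line. Below it are the 17 other genes listed for a link to Wnt inhibition, not all of which restrain Wnt signalling. Of the inhibitors 5 lie to the right and Sfrp2 lies at 0, whereas the other genes lie on both sides.

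The ligands and receptors on which the inhibitors act moved in both directions. Of 17 tested genes for Wnt ligands and their export, 6 were higher, 4 lower and 7 did not pass (median 0.23). Wnt10b rose by 1.60 ± 0.12 and Wnt6 by 0.35 ± 0.11, whereas Wnt16 (-1.43 ± 0.11) and Wnt3a (-0.53 ± 0.13) fell. The count of higher ligand genes was 3 without pair 4, 5 or 6. Of 20 tested receptors, co-receptors and agonists, 10 were higher, 4 lower and 6 did not pass (median 0.24). The R-spondin receptor gene Lgr6 (2.45 ± 0.08) and the Lrp family gene Lrp4 (1.91 ± 0.08) rose. Fzd6 (-0.46 ± 0.10) and Fzd1 (-0.43 ± 0.10) fell. This list goes by family and does not say in which direction a gene acts on the pathway. Lrp6, the co-receptor bound by Dkk1 and Dkk4, was higher by 0.22 ± 0.07, and Lrp5 stood at 151 against 148 CPM and did not pass.

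Of 17 tested genes often regulated by Wnt and beta-catenin, 11 were higher, 3 lower and 3 did not pass (median 0.33). Sp5 (4.91 ± 0.34) and Fgf20 (3.11 ± 0.15) rose, and Cd44 (-2.54 ± 0.09) and Nrarp (-1.07 ± 0.08) fell. Axin2, a broadly used readout of the pathway, had 167 ± 39.2 CPM with MAdCAM-1 and 184 ± 28.4 CPM without it (SD, n = 7 libraries) and did not pass (edgeR adjusted p = 0.282). The inhibitors Dkk4 and Apcdd1, themselves known Wnt targets, were both higher. Dkk1, not tested, had 0 reads in the placode-enriched libraries and 24 in the IFE libraries, all from 3 of 7. It did not pass without the filter on low counts (edgeR adjusted p = 0.172). Exons of Kremen2, Fgf20, Fzd6, Nrarp, Axin2 and Shh overlap genes on the opposite strand that were also counted. So do exons of the dermal markers Col5a1, Fbn1 and Twist2. The counts of all these genes carry the same uncertainty as those of Sfrp2. These lists were chosen with results of these data known and are descriptions.

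Genes with the most similar course over the 14 libraries were sought among 9344 genes of at least 10 mean CPM, by the root-mean-square (RMS) difference of centred log2 CPM. Dkk4 was closest to Fgf20 (RMS difference 0.24) and Fn1 (0.27). Wif1 was closest to Mical2 (0.41) and Nrp2 (0.53). Dkk3 was closest to Tnfaip3 (0.28) and Rhpn2 (0.35), and Sfrp1 to Slc35d1 (0.13) and Chst11 (0.13). Apcdd1 was closest to Mast4 and Phf12 (0.15 each), and Sfrp2 to Yipf3 and Ubtd2 (0.20 each). This distance is dominated by the size of the fraction difference where that is large.

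Library totals lay between 23.8 and 49.5 M counts (M for mega), and 18185 to 21670 genes had counts in a library. Epithelial markers were high in both fractions, with summed levels of 5273 to 6714 CPM (placode-enriched) and 5590 to 6827 CPM (IFE). All 10 placode markers were higher, which includes Madcam1 and thus checks the sort. The IFE fraction also held other layers and cells. Its 10 suprabasal markers summed to 3769 ± 631 CPM against 297 ± 89.6 CPM, and its 9 melanoblast markers to 172 ± 36.3 against 11.7 ± 2.56 CPM (SD, n = 7). Among the 7 tested Schwann cell and neuron markers, 4 had lower levels in the placode-enriched fraction. Their sum of 155 ± 4.91 CPM in IFE against 93.4 ± 10.2 CPM was mostly Erbb3 (142 against 87.7 CPM), and the other 3 that were lower were Tubb3 (2.32 against 0.233 CPM), Fabp7 (1.90 against 0.0402 CPM) and Cdh19 (1.34 against 0.00452 CPM). Endothelial sums lay between 2.25 and 6.77 CPM and immune sums between 3.77 and 11.3 CPM over both fractions. Muscle markers reached at most 0.711 CPM. Of 2 tested markers of the dermal condensate, the mesenchymal cluster below a placode, Sox2 was higher (3.28 against 0.289 CPM) and Crabp1 did not pass. The part of these differences in the levels of the inhibitors was not tested.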

How the data were processed

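RNA from 14 sorted epithelial samples was sequenced after library preparation with the Ovation SoLo kit, per the labels' protocols. The authors deposited raw read counts per Ensembl gene. The submitters' processing notes name HTSeq, STAR (given there as 1.5), bcl2fastq (2.17.1.14), Trimmomatic, MultiQC and FastQC, and list GRCm38 and mm10 as builds. Not given in the sources used here are the authors' gene annotation, whether counting used strand, and how duplicates were handled. Symbols, positions and lengths came from GENCODE M21 (GRCm38), which matched 25949 of 26252 identifiers. The table had 0 unused columns.

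In edgeR 4.0.16 (R 4.3.3), filterByExpr kept 15382 genes and removed 10870. After TMM scaling the fractions were compared by quasi-likelihood F tests with robust dispersion and a block for each pair, adjusted over all tested genes. Fold changes use a prior count of 0.125 and approximate SE. Pair differences use a prior count of 2. The pairs come from the title codes and the series design. Within pairs, the libraries' deviations from their group means had a mean correlation of 0.0565 (-0.128 to 0.204 across pairs, over 0.1 in 2 of 7). The labels do not say whether different pairs shared a litter or day, and p-values reflect only how these pools vary. No 2 libraries of a fraction agreed within sampling noise.

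The genes and lists were chosen with earlier results of these data known. Of each pathway list the 2 highest and 2 lowest called genes with at least 10 CPM in the higher fraction are named. All called genes of the list of other inhibitor-related genes are named, as are the 2 nearest genes by distance. Lrp5, Lrp6, Kremen1, Axin2, Shh, Madcam1 and cell type markers are named as references, some after their values were seen. Alternatives were no block, other scalings and filters, DESeq2 1.42.0, limma-voom (limma 3.58.1), non-robust dispersion, each pair left out and each set of pairs alone. The fits were tested on simulated data. Tables and figures used Python 3.11.15, pandas 2.3.3, numpy 2.4.6 and matplotlib 3.10.9.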

Additional observations from a re-analysis of the deposited data

Results flagged for a closer look

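Single libraries or pairs stood apart from the other 6 in 4 of 26 checked groups of values. The cut-off is set for about 1 in 20 groups of normally distributed values. Groups with mostly 0 reads, such as those of Dkk2 and Notum here, do not follow that rate. The count of 4 is thus not set against chance. Dkk2 was at 0.158 CPM in placode-enriched pair 6 and at 0 in the others, which is 5 reads. Dkk3 was at 6.93 CPM in placode-enriched pair 2, below the next lowest at 9.62 CPM. Notum was at 0.20 CPM in IFE pair 2, which is 7 reads, with the next at 0.0278 CPM. The Sfrp2 difference within pair 5 was 1.01 on the log2 scale, with the next highest at 0.02.

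The Sfrp2 difference was also above 0 in the 3 pairs with 27-7 codes and below 0 in the 4 others, though pairs 6 and 7 (0.02 each) and pair 4 (-0.0019) lay next to 0. The difference between both sets was 0.59 ± 0.40 on the log2 scale and did not pass (edgeR interaction test over all genes, adjusted p = 0.902).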

How the results depend on the processing

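The 5 called inhibitors kept direction and call under all 18 alternatives run. Log2 fold changes ranged from 5.26 to 5.52 for Wif1, 3.09 to 3.21 for Dkk4, 2.59 to 2.93 for Dkk3, 0.97 to 1.18 for Sfrp1 and 0.41 to 0.55 for Apcdd1, whose highest adjusted p was 0.0488. Sfrp2 ranged from -0.24 to 0.35 and passed in none. Without the replicate block Wif1 stood at 5.31, Apcdd1 at 0.44 (adjusted p = 0.0278), and 2357 genes were higher and 2332 lower. The block changed no call among the inhibitors. With no filter on low counts the inhibitors called lower went from 0 to 1 (Dkk2). In the 27-7 pairs alone, 1226 genes were higher and 1105 lower. They included 2 higher ligand genes, 6 higher and 2 lower receptor genes, and 3 lower genes among the other inhibitor-related ones. In the other pairs alone, 1547 were higher and 1540 lower. They included 2 higher ligand genes, 2 lower receptor genes and 7 higher genes of the list linked to Wnt and beta-catenin. Of the other inhibitor-related genes, 3 were higher and 3 lower. Leaving out 1 pair gave 3 to 6 ligand genes higher, and 0 genes with a different fraction effect between pair sets each time. Per coding length, added after seeing the data, Dkk4 took 64.1% and 26.7% of the summed level in placode-enriched and IFE libraries, Apcdd1 23.0% and 61.3%, and Wif1 6.21% and 0.55%. The few reads of Dkk1, Dkk2, Frzb and Notum limit what can be said of them to counting intervals. Scaling moved the median of all genes by at most 0.033 on the log2 scale.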

Other observations

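A ligand gene below the level at which list genes were named, chosen after its values were seen, separated the fractions almost as widely as Wif1. Wnt2b averaged 5.05 ± 0.73 CPM with MAdCAM-1 and 0.173 ± 0.197 CPM without it (SD over 7 libraries each). The fractions differed by 5.11 ± 0.56 on the log2 scale in 7 of 7 pairs (adjusted p = 1.15e-05 in edgeR). Pair differences ran from 3.10 to 6.53, more widely than the 4.46 to 5.92 of Wif1. The IFE libraries ran from 0 to 0.556 CPM, so the size of the difference rests on low IFE counts.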
